A study of Drosophila erecta with 23 samples.

Results

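The segment polarity genes were followed through embryogenesis of *Drosophila erecta* with RAMPAGE. This assay reads cDNAs that reach the 5' end of the transcript, so each read marks a transcription start site. Members were chosen by a fixed list of 8 *D. melanogaster* gene identifiers, namely *en* (FBgn0000577), *inv*, *hh* (FBgn0004644), *ptc* (FBgn0003892), *gsb* (FBgn0001148), *gsb-n* (FBgn0001147), *ci* (FBgn0004859) and *nkd* (FBgn0002945). Of these, 7 were among the 8948 genes of the expression table, and *inv* (FBgn0001269), the paralog of *en*, was not analysed here. The material was whole embryos of the reference genome strain, with no treatment and no mutant, collected in 23 consecutive windows of 1 h between 0-1 h and 22-23 h after egg laying. Each hour was represented by 1 library, so that no hour had a replicate, and all libraries were barcoded and sequenced together. The expression table holds RPM, that is, the reads of a gene divided by those of its library and scaled to a common total of 1000000.

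Segment polarity genes divide each segment of the fly embryo into anterior and posterior compartments and maintain the boundaries between segments. In *D. melanogaster*, the homeodomain factor Engrailed marks posterior cells, which secrete the ligand Hedgehog. Hedgehog binds its receptor Patched on neighbouring anterior cells, and this relieves the inhibition of the signalling pathway and stabilises the full-length activator form of the transcription factor Cubitus interruptus. Naked cuticle is a feedback antagonist of Wingless, the second signal across the boundary, and Gooseberry and Gooseberry-neuro are Pax-type transcription factors encoded by neighbouring, divergently transcribed genes.

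The precision of these values depends on the hour. Library totals had a median of 3427860 reads and ranged between 142925 (7-8 h) and 13984136 (0-1 h), as recovered from the RPM values. At 7-8 h 1 read was worth 7.00 RPM, and the next smallest library held 1051976 reads. Genes of the end of embryogenesis stood out at 4-5 h and 5-6 h. A set of 216 genes averaged 50 RPM or more during 20-23 h and less than 5% of that at 6-7 h and during 8-11 h. It held 4.99% of reads at 4-5 h and 3.14% at 5-6 h. At 3-4 h and 7-8 h, which did not enter the choice of the set, it held 0.313% and 0.434%. No segment polarity gene was in that set, but its rule asks for low values in germ band hours, so this absence says little. The part of this signal in the members' values was not tested. At 17-18 h and later the gene table held 60.3% to 74.3% of the library's reads, beside 80.4% to 83.1% during 6-11 h.

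All 7 genes changed over time (adjusted p from 1.67e-09 for *gsb* to 0.00369 for *gsb-n*, limma F-test of a smooth curve of the hour, Benjamini-Hochberg adjustment over the 8367 genes that passed the filter on low counts). Since 89.4% of all genes tested were also called, this count says little about the members. Their timing was described next. The highest hour of each of the 7 lay between 3 h and 11 h, a property of 29.4% of all genes tested. Each had at least 60% of its summed RPM within 8 consecutive hours, beside 41.4% of all genes. These hours were 3-11 h for 6 genes, with 66.7% (*ptc*), 67.7% (*nkd*), 70.3% (*hh*), 72.7% (*ci*), 82.8% (*en*) and 84.9% (*gsb*) of the gene's summed RPM, and 8-16 h for *gsb-n*, with 90.5%. The interval 3-11 h was not among the planned windows and is the same as these 8 hours of 6 members. Its share of all genes, 29.4%, is therefore a description only.

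**Figure D1:**
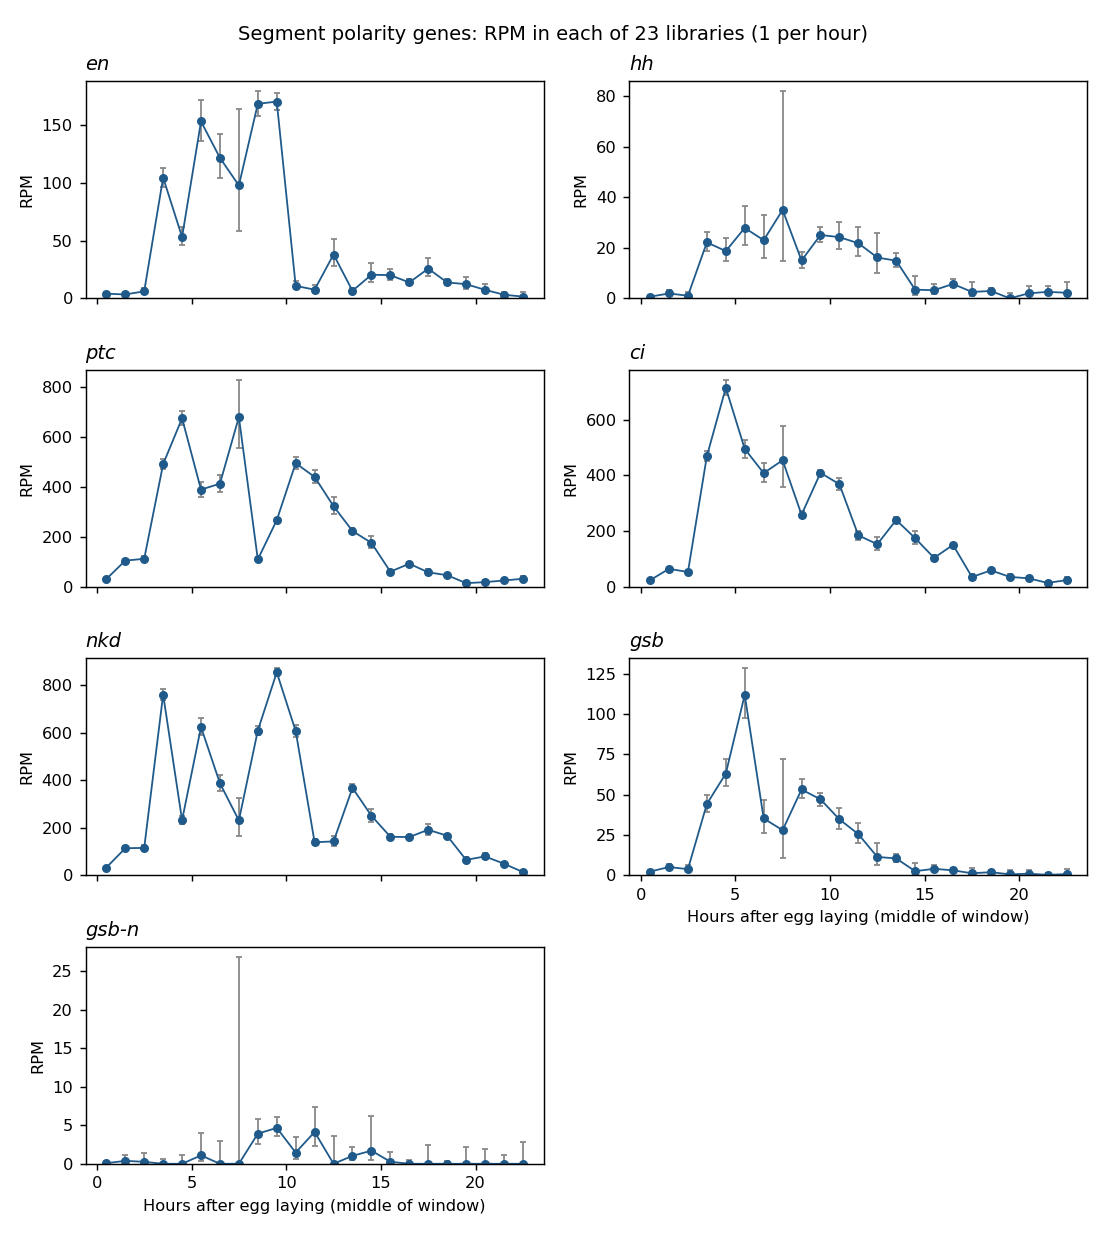
RPM of each segment polarity gene (y axis) against the middle of the collection hour (x axis); points are single libraries, bars are 95% Wilson intervals of the read counts, and each panel has its own scale. In the panels of *en*, *hh*, *ptc*, *ci*, *nkd* and *gsb* the curve steps up at 3-4 h. It is low from 10-11 h on for *en* and only from 19-20 h on for *nkd*, which has 192 RPM at 17-18 h. *gsb-n* appears mainly at 8-12 h, and the wide bars mark the shallow library of 7-8 h.

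The onset was shared by all members except *gsb-n*. For the other 6 genes, 3-4 h was the first hour to reach 25% of the gene's highest RPM, and 5 of these 6 had already passed 50% (*gsb* did so at 4-5 h). *en* had 105 RPM at 3-4 h, against 6.08 RPM at 2-3 h, which is a ratio of 17.2 (95% interval of counting error 11.5 to 25.9). *hh*, the ligand gene, had 22.1 RPM at 3-4 h, against 1.01 RPM at 2-3 h, a ratio of 21.9 that rests on 4 reads in the earlier library (8.08 to 59.1). The step was also steep for *gsb*, with 44.3 RPM at 3-4 h against 3.80 RPM at 2-3 h (ratio 11.7, 6.92 to 19.6).

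The receptor gene *ptc*, its effector *ci* and *nkd* were already measured in the earlier hours, and their steps were smaller. *ptc* had 491 RPM at 3-4 h, against 112 RPM at 2-3 h (ratio 4.38, 3.96 to 4.84). *ci* had 469 RPM at 3-4 h, against 53.2 RPM at 2-3 h (ratio 8.83, 7.67 to 10.2). *nkd* had 761 RPM at 3-4 h, against 115 RPM at 2-3 h (ratio 6.60, 5.99 to 7.27). The steps were set beside those of 5107 genes with at least 10 RPM in either hour, which include every member but *gsb-n*. On the log2(RPM + 1) scale, 0.157% stepped up at least as far as *en*, 0.411% as far as *hh* and 0.666% as far as *gsb*. The shares were 0.764% for *ci*, 1.63% for *nkd* and 3.62% for *ptc*. These intervals cover the counting of reads and not the difference between embryo collections, since each hour was collected once. Whole embryos were sampled, so that more cells with a transcript and more transcript per cell cannot be told apart, nor can RNA laid down by the mother and RNA made by the embryo.

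A first, smaller increase preceded this step for 5 of the 6 genes, between the single libraries of 0-1 h and 1-2 h. Among 5406 genes with at least 10 RPM in either hour, 3.39% rose at least as far as *nkd* on the log2(RPM + 1) scale. The shares were 3.59% for *ptc*, 5.07% for *ci*, 6.38% for *gsb* and 6.70% for *hh*. *gsb* and *hh* were under 10 RPM in both hours and so were not among these genes. *nkd* had 114 RPM at 1-2 h, against 32.5 RPM at 0-1 h (95% interval of the ratio 3.13 to 3.92). *ptc* had 105 RPM at 1-2 h, against 31.0 RPM at 0-1 h (ratio 3.38, 3.01 to 3.80), and *ci* had 64.6 RPM against 23.7 RPM (ratio 2.72, 2.37 to 3.12). Between 1-2 h and 2-3 h these 3 changed little, with ratios of the later to the earlier hour of 1.01 for *nkd*, 1.07 for *ptc* and 0.824 for *ci*. *gsb* had 5.14 RPM at 1-2 h, against 2.29 RPM at 0-1 h (ratio 2.25, 1.41 to 3.58), and *hh* had 1.93 RPM on 15 reads, against 0.644 RPM on 9 reads (ratio 3.00, 1.31 to 6.85). *en* did not show an increase between these hours, with 3.34 RPM at 1-2 h against 4.00 RPM at 0-1 h (ratio 0.835, 0.524 to 1.33). It was higher 1 h later, with 6.08 RPM at 2-3 h on 24 reads (ratio 1.82, 1.04 to 3.17). At 2-3 h *gsb* had 3.80 RPM (ratio to 1-2 h 0.738, 0.408 to 1.34) and *hh* 1.01 RPM on 4 reads (0.525, 0.174 to 1.58). Whether their early increase lasted was thus not resolved.

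The window 2-4 h holds one hour before this step and one after it. In 2-4 h against 0-2 h, 0 of 7 members were called by limma, with a background of 0.705% of genes called higher and 3.41% called lower. The unadjusted p was under 0.05 for 4 members, all higher, and for 15.7% of all genes in either direction. The quasi-likelihood test of edgeR on recovered reads called 2 members higher (*hh* and *ci*) with TMM factors and 1 (*ci*) with library totals, while DESeq2 called 6, all but *gsb-n*. These fits called 383, 473 and 780 genes in all, in either direction, beside 344 with limma. Without the library of 2-3 h, limma called 3 members, *ci* (adjusted p = 0.00248), *gsb* (0.0334) and *hh* (0.0391), among 395 genes in all. The median difference of the 7 members was 1.99 on the log2(RPM + 1) scale, beside -0.14 over all genes tested.

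In 6-11 h against 0-2 h, when the germ band is extended and then retracts in *D. melanogaster*, 6 of 7 members were higher (background 7.89% of genes called higher, limma). Consecutive hours are not replicates, so the p-values measure the difference against the scatter of the hours around their window means. The difference of *en* was the largest of the members, 4.17 ± 1.01 (SE, log2 of RPM + 1, adjusted p = 0.00422), and 9 of the 8366 other genes tested were as high or higher. Its values were 122, 98.0, 169, 171 and 10.8 RPM in the 5 hours of 6-11 h, against 4.00 and 3.34 RPM in the 2 hours of 0-2 h. Every later hour was above both early hours, although the last of them, 10-11 h, was far below the other 4.

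*hh* was higher by 3.49 ± 0.76 (adjusted p = 0.00185), with 23.0, 35.0, 15.0, 25.1 and 24.2 RPM during 6-11 h, against 0.644 and 1.93 RPM during 0-2 h. *ptc* showed the smallest difference of the 6, 2.52 ± 0.74 (adjusted p = 0.0162), with 412, 679, 109, 266 and 494 RPM during 6-11 h, against 31.0 and 105 RPM during 0-2 h. The low hour was 8-9 h, whose value of 109 RPM barely exceeded that of 1-2 h. *ci* was higher by 3.22 ± 0.57 (adjusted p = 0.000276), with 409, 455, 259, 409 and 369 RPM, against 23.7 and 64.6 RPM.

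*nkd* was higher by 2.98 ± 0.78 (adjusted p = 0.00767), with 387, 231, 609, 854 and 607 RPM during 6-11 h, against 32.5 and 114 RPM during 0-2 h. *gsb* was higher by 3.14 ± 0.72 (adjusted p = 0.00266), with 35.3, 28.0, 53.3, 47.1 and 34.7 RPM, against 2.29 and 5.14 RPM. For these genes too, no germ band hour overlapped the first hours. *gsb-n* was not called (0.93 ± 0.63, adjusted p = 0.327), with 0, 0, 3.91, 4.66 and 1.46 RPM, against 0.0715 and 0.386 RPM. These calls lean on the 0-1 h library. Without it, *ci* alone was called, and the adjusted p of the other 5 ranged from 0.0678 to 0.386.

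**Figure D2:**
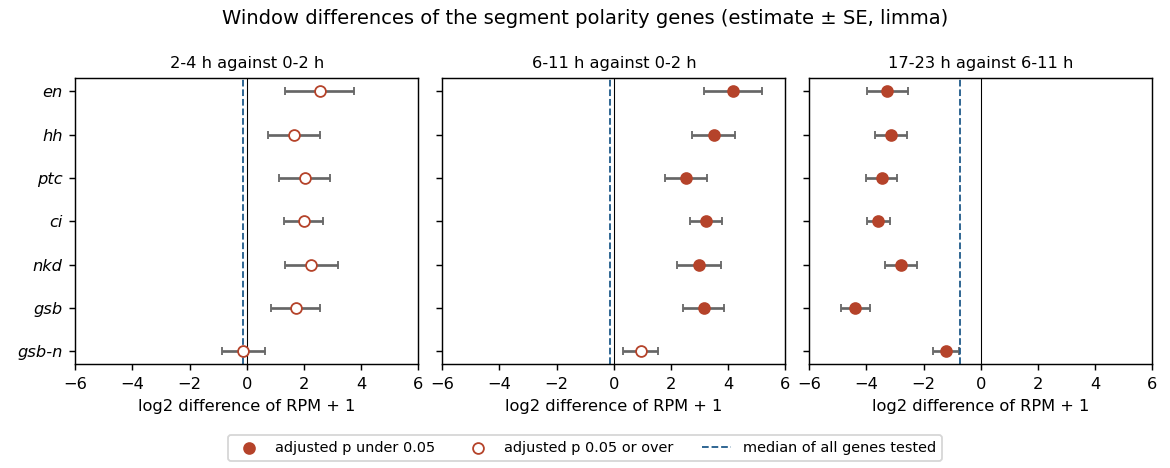
Difference between windows on the log2(RPM + 1) scale (x axis, estimate ± SE from limma) for each gene (rows), in 3 panels for 2-4 h against 0-2 h, 6-11 h against 0-2 h and 17-23 h against 6-11 h; filled points have an adjusted p under 0.05 and the dashed line is the median of all genes tested (-0.14, -0.14 and -0.72). All members but *gsb-n* lie at 1.64 or more in the first panel and at 2.52 or more in the second, and all 7 lie to the left of the median in the last.

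Members differed in the hour of their maxima. *ci*, the effector of the pathway, was highest at 4-5 h (715 RPM), and *gsb* followed at 5-6 h (112 RPM). *en*, *nkd* and *gsb-n* were highest at 9-10 h, with 171, 854 and 4.66 RPM. *hh* and *ptc* were highest at 7-8 h on 5 and 97 reads (35.0 RPM, 14.9 to 81.9, for *hh*, and 679 RPM, 556 to 828, for *ptc*), and without that library their highest hours were 5-6 h (27.9 RPM) and 4-5 h (674 RPM), so that *ptc* then shared its hour with *ci*. With TMM factors *nkd* was highest at 3-4 h, so the order of the maxima depends on the scaling. The mean hour weighted by RPM ran from 7.35 h for *gsb* through 8.31 h for *en*, 8.45 h for *ci*, 8.48 h for *ptc*, 8.98 h for *hh* and 9.34 h for *nkd* to 10.0 h for *gsb-n*. *en*, *ci* and *ptc* thus lay within a fraction of an hour, which the single hourly libraries cannot order.

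The courses between onset and decline were not smooth, and the irregular hours differed from gene to gene. *en* fell most abruptly, to 10.8 RPM at 10-11 h (37 reads, 7.83 to 14.9), against 171 RPM at 9-10 h (1942 reads, 163 to 179), 15.8-fold lower. In this step 9 of 5460 genes with at least 10 RPM, *en* included, fell as far. After that *en* stayed under its 3-4 h value in every library, with a lowest, median and highest value of 6.48, 16.9 and 38.0 RPM during 11-17 h.

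No other member fell as far in the same step. At 10-11 h *ptc* was higher, with 494 RPM against 266 RPM at 9-10 h (ratio 1.86, 1.75 to 1.97), and *hh* had 24.2 RPM against 25.1 RPM (0.757 to 1.23). The ratios of *ci*, *gsb* and *nkd* were 0.901, 0.737 and 0.710, and that of *gsb-n* was 0.313 on 5 reads against 53 (0.125 to 0.783). *nkd* declined 1 h later, with 139 RPM at 11-12 h against 607 RPM at 10-11 h (4.36-fold lower), had 143 RPM at 12-13 h and then 368 RPM at 13-14 h. *ptc* had its own low hour, 109 RPM at 8-9 h against 679 RPM at 7-8 h (6.20-fold lower, a fall reached by 88 of 5412 genes, *ptc* included), and recovered to 494 RPM by 10-11 h. An earlier gap of *nkd*, 232 RPM at 4-5 h against 761 RPM at 3-4 h (3.28-fold lower), fell in one of the libraries with late-gene signal. There *en* was also low (53.2 RPM), while *ci*, *ptc* and *gsb* were higher than at 3-4 h. *hh* had 18.7 RPM at 4-5 h against 22.1 RPM at 3-4 h (ratio 0.845, 0.625 to 1.14). The dips of *ptc* at 8-9 h and of *nkd* and *en* at 4-5 h are single libraries, while the low values of *nkd* at 11-13 h and of *en* from 10-11 h on cover more than 1.

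**Figure D3:**
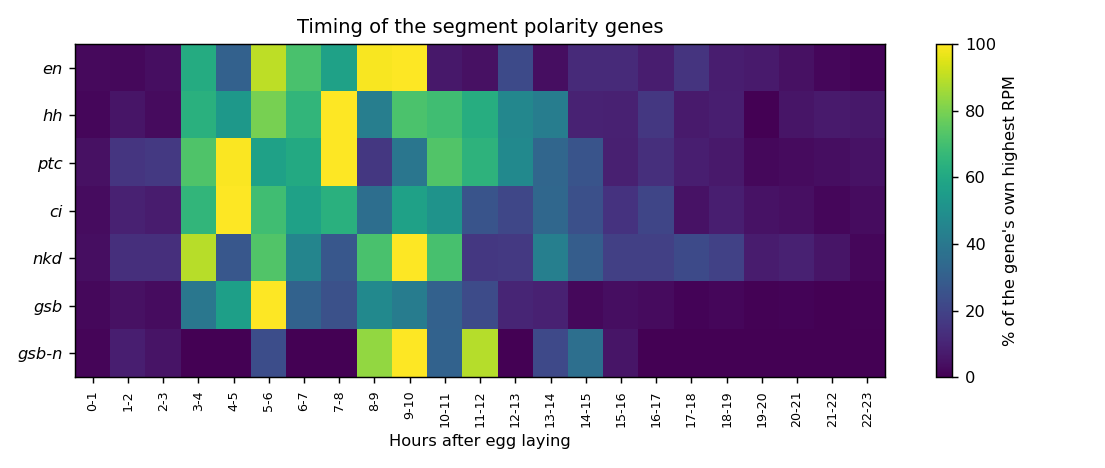
RPM in each hour as a percentage of the gene's own highest hour (colour scale, 0 to 100%), with genes as rows and the 23 hours as columns. *en* and *nkd* share bright columns at 3-4 h, 5-6 h and 8-10 h and a darker one at 4-5 h, *ptc* and *ci* are bright at 4-5 h, and *gsb-n* is dark before 8-9 h apart from a faint signal at 5-6 h.

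Among the members, the course most like that of *en* was that of *nkd*, by a small margin. Over the 23 hours, Pearson's r of log2(RPM + 1) was 0.786 between *en* and *nkd*, which placed *nkd* 10th among the 8366 other genes by likeness to *en*. *ci* (0.763, rank 36) and *gsb* (0.757, rank 44) were close behind, and *nkd* itself was more like *ci* (0.841). *hh*, which Engrailed cells express, reached 0.689 with *en* (rank 150), and *ptc* reached 0.595 (rank 397). The members most alike were *gsb* and *ci* (0.917) and *ptc* and *ci* (0.911), with *ci* 13th of all genes for *ptc*. *hh* was about equally like *gsb* (0.893), *ptc* (0.892) and *ci* (0.887). *gsb-n* had the lowest values, 0.273 to 0.498 with the other members and 0.483 with its neighbour *gsb*. The gene most like *en* (0.872) was also the gene most like *nkd* (0.920), and it is given only by its identifier, FBgn0041184. These are descriptions over hours that share libraries and depth and follow each other in time, and they leave function and control aside.

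From the germ band stages to the end of embryogenesis every member declined. In 17-23 h against 6-11 h, 7 of 7 members were lower, beside a background of 46.7% of genes called lower and 22.9% called higher (limma). This background depends on the scaling, as 32.9% of all calls were higher with library totals, 59.9% with TMM factors and 68.9% with DESeq2 size factors. The 7 members were lower under each of these. Their median was -3.26 beside -0.72 for all genes with library totals, -2.38 beside 0.13 with TMM factors and -2.17 beside 0.36 with DESeq2 size factors.

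The member with the largest decline was *gsb*, which fell by 4.39 ± 0.52 (adjusted p = 2.00e-07), with a lowest, median and highest hour of 0.284, 0.856 and 1.94 RPM during 17-23 h, against 28.0 to 53.3 RPM during 6-11 h. *ci* fell by 3.58 ± 0.41 (adjusted p = 1.37e-07), with 13.9, 32.8 and 59.1 RPM during 17-23 h, against 259 to 455 RPM. *ptc* fell by 3.47 ± 0.53 (adjusted p = 5.65e-06), with 14.6, 28.7 and 57.8 RPM during 17-23 h, against 109 to 679 RPM. For these 3 genes the windows did not overlap.

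*en* fell by 3.26 ± 0.73 (adjusted p = 0.000403), with 1.46, 9.82 and 25.8 RPM during 17-23 h, against 10.8 to 171 RPM, and its windows overlapped because of the 10-11 h library. *hh* fell by 3.15 ± 0.55 (adjusted p = 2.84e-05), with 0, 2.35 and 2.91 RPM during 17-23 h, against 15.0 to 35.0 RPM, again without overlap. *nkd* fell by 2.79 ± 0.57, the smallest decline of the 6 genes other than *gsb-n* (adjusted p = 0.000144), with 13.9, 72.2 and 192 RPM during 17-23 h, against 231 to 854 RPM. It kept 8.89% of its summed RPM in the last 6 hours, beside 5.99% for *en*, 3.70% for *ptc*, 4.03% for *ci*, 4.46% for *hh* and 1.17% for *gsb*.

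The maxima of *gsb* and *gsb-n* differed in time, although both were measured at 8-12 h. *gsb-n* had 109 reads in the whole series, 0 reads in 12 libraries, and no more than 3 reads in any library before a signal of 3.91 RPM (23 reads) at 8-9 h and 4.66 RPM (53 reads) at 9-10 h, followed by 1.46 RPM (5 reads) at 10-11 h and 4.13 RPM (11 reads) at 11-12 h. *gsb* was by then past its maximum but still at 53.3 RPM at 8-9 h and 47.1 RPM at 9-10 h. *gsb-n* was last seen at 15-16 h (1 read) and had 0 of 19521534 reads during 17-23 h, against 81 of 22125484 during 6-11 h. With 3 reads over the later window as the upper limit, it was 23.8-fold lower on pooled reads. This value leaves out the counting error of the 81 reads and leans on the deep libraries of 8-9 h and 9-10 h. The pooled value of 6-11 h was 3.66 RPM, while the mean of its 5 hours was 2.01 RPM, which would give a smaller fold. Its call (adjusted p = 0.0202) was lost without 8-9 h (0.0758) or without 9-10 h (0.0841). At 7-8 h a count of 0 allowed up to 21.0 RPM (3 reads), so its absence there was not detectable at this depth.

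Promoters were examined in the table of TSS clusters (TSCs, groups of neighbouring start sites taken as one promoter), in which genes carry *D. erecta* identifiers. The files do not pair these with the members, so TSCs were matched by reads, as the *D. erecta* gene or unassigned TSC with the most reads whose reads never exceeded those of the member in any library. The match held every read of *en*, *hh* and *gsb*, 99.9% of the reads of *ptc* and of *ci*, 98.1% of *nkd* (a TSC with no gene in that table) and 76.1% of the few reads of *gsb-n*. The next best candidate never held more than 52.1%. In total 10 TSCs were matched, and all 10 changed over time, beside 87.4% of all TSCs tested.

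Nearly all initiation of most members came from a single narrow promoter. Positions are 1-based on scaffolds of FlyBase release 1.3. The only TSC of *en* spanned 40 bp on the plus strand of scaffold 4845 (18382453 to 18382492). The TSC matched to *nkd* spanned 64 bp on the minus strand of scaffold 4784 (18856914 to 18856977). Since that TSC has no gene, the match could not return further unassigned TSCs of *nkd*, and 603 of its reads stayed unmatched. *ptc* initiated almost wholly at 18103540 to 18103607 on the minus strand of scaffold 4929 (99.5% of its TSC reads). *gsb* initiated at 22329514 to 22329567 on the plus strand of scaffold 4845. The TSC matched to *gsb-n*, with 76.1% of its reads, lay at 22319446 to 22319476 on the minus strand, and 26 reads stayed unmatched. These are divergent start sites with 10037 bp between them, the arrangement of the pair in *D. melanogaster*.

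*ci* had a second TSC with a course of its own. Its main TSC, at 1245595 to 1245700 on the plus strand of scaffold 4512, held 98.1% of its TSC reads, and a TSC that lay 8262 bp upstream on the same strand (1237333 to 1237438) held 385 reads or 1.92%. In 17-23 h against 6-11 h the main TSC fell by 3.73 ± 0.41 on the log2(RPM + 1) scale (adjusted p = 7.94e-08, limma), while the upstream TSC differed by 0.15 ± 0.50 (adjusted p = 0.801). The upstream TSC had 9.44 RPM at 14-15 h on 11 reads, its highest value, and was about as high at 10-11 h (8.82 RPM, 30 reads) and at 13-14 h (8.46 RPM, 57 reads), all later than the maximum of the gene.

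The upstream TSC made up a larger part of the *ci* reads in the later windows. Its share of reads, with 95% Wilson intervals of the pooled counts, was 1.08% in 0-2 h (0.569 to 2.04), 0.380% in 2-4 h (0.212 to 0.679), 0.656% in 4-6 h (0.433 to 0.991), 1.18% in 6-11 h (0.969 to 1.44), 4.05% in 11-17 h (3.49 to 4.69) and 9.95% in 17-23 h (8.07 to 12.2). By single libraries, the lowest, median and highest share was 3.03%, 10.4% and 17.7% in 17-23 h, against 0%, 0.856% and 2.38% in 6-11 h. Every late library was above every germ band library. The difference of 9.33 percentage points had p = 0.00433 in a two-sided exact permutation test over 6 and 5 hours (0.00649 adjusted over 3 genes with a second TSC), with the hours treated as exchangeable; this test was chosen after the data were seen. It was 7.84 to 10.8 points with any 1 library left out. The upstream TSC abuts a minus-strand TSC of 119 reads at 1237204 to 1237332 that is listed under other genes, and whether it starts *ci* transcripts rests on the assignment in the deposited table.

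**Figure D4:**
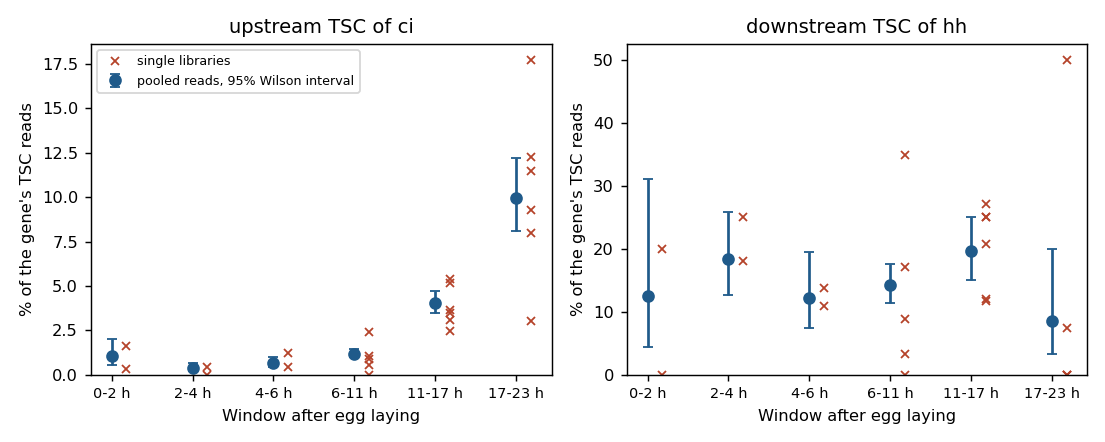
Share of the reads of *ci* at its upstream TSC (left) and of *hh* at its downstream TSC (right), in percent (y axis), by window after egg laying (x axis); circles are pooled reads with 95% Wilson intervals and crosses are single libraries. The share at the upstream TSC of *ci* is 9.95% in 17-23 h, against 1.18% in 6-11 h, whereas the crosses of *hh* scatter from 0% to 50% in 17-23 h and from 0% to 34.9% in 6-11 h.

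The second TSCs of *hh* and *ptc* did not behave in this way. The main TSC of *hh* lay at 9098884 to 9099046 on the plus strand of scaffold 4820 (84.5% of reads). Its second TSC lay 12811 bp downstream at 9111695 to 9111898 (15.5%). No gene models were consulted, so whether the downstream TSCs of *hh* and *ptc* are separate promoters was not tested. Shares of the downstream TSC were 8.51% in 17-23 h (4 of 47 reads) and 14.3% in 6-11 h (70 of 491), and by library they differed by -1.34 points (p = 0.873, two-sided exact permutation test over 5 and 5 hours). With 1 library left out the difference ran from -10.97 to 4.19 points, so a change of several points was not detectable at this depth. The second TSC of *ptc*, 14222 bp downstream of the first, had 0 of 719 reads in 17-23 h, which allows a share of up to 0.417% by 3 reads and 0.531% by the Wilson interval, against 41 of 5993 (0.684%, Wilson interval 0.505 to 0.927) in 6-11 h (p = 0.00216, exact permutation test over 6 and 5 hours, the smallest it can give; 0.00649 adjusted). The Wilson intervals of the pooled shares overlap. The late libraries held 25 to 431 reads of *ptc*, and 1 read of the second TSC would be a share of over 1% in 5 of the 6. A count of 0 in these 5 thus says little about a lower share. As for *ci*, the permutation tests of *hh* and *ptc* treat the hours as exchangeable and were chosen after the data were seen.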

How the data were processed

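RAMPAGE libraries of 23 hourly collections were mapped by the authors with STAR (version not given in the sources used here) to FlyBase release 1.3 of *D. erecta*. TSCs were called on the pooled reads of the series, and clusters on rDNA were removed. The deposited tables hold RPM per gene (under *D. melanogaster* identifiers, with assignments completed by orthology) and per TSC. The deposited TSC list also carries a score and the aligned gene table a smoothed score, neither of which was used as a measurement. Since gene levels follow the orthology assignment, a start site missed by it is not counted.

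Whole reads were recovered for 100% of 185320 gene values and 379172 TSC values above 0 (tolerance 0.02 reads), so depth is known. Whether duplicate reads were removed is not given in the sources used here, and all intervals (95%, Wilson for single values) cover counting error only. Change was tested with limma 3.58.1 (trend) on log2(RPM + 1), which understates changes of low genes, with a natural spline of 4 df or with means of 6 windows (0-2, 2-4, 4-6, 6-11, 11-17 and 17-23 h), after filterByExpr with a minimum count of 10 and at an adjusted p under 0.05. edgeR 4.0.16 and DESeq2 1.42.0 on recovered reads, scalings, pseudocounts, filters and left-out hours were alternatives. Scripts were tested on simulated data. The 3 genes with a second TSC were compared by exact permutation over hours. Members and lists were chosen with earlier results of these data known. Named genes were all members present, and the genes most like each by Pearson's r. A list of other pathway genes and stage markers was not used, because 0 of 43 symbols and no identifier matched the reference table. No sequences are shown.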

Additional observations from a re-analysis of the deposited data

How the results depend on the processing

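No paired analysis was possible because each hour has 1 sample. All 7 members changed over time in every fit at an adjusted p under 0.05, with any 1 hour left out (7 to 7 members, and 7220 to 7732 genes in all). In 17-23 h against 6-11 h, 6 to 7 members stayed called with 1 hour left out, among 5590 to 6167 genes. The onset was the least stable result. Members higher in 2-4 h against 0-2 h numbered 0 with limma, 2 with edgeR and TMM factors, 1 with edgeR and library totals and 6 with DESeq2, and 0 to 3 with 1 hour left out. All genes called in that comparison numbered 344, and 144 with a pseudocount of 0.1, 673 with a pseudocount of 5, 228 with DESeq2 size factors, 780 with DESeq2, 22 at an adjusted p under 0.001 and 13 to 566 with 1 hour left out. In 6-11 h against 0-2 h, 6 members were higher, 1 at an adjusted p under 0.001 and 1 to 6 with 1 hour left out, among 1712 genes called, 2766 with DESeq2, 506 at an adjusted p under 0.001 and 458 to 1961 with 1 hour left out. Where 1 hour was left in 0-2 h or 2-4 h, it was assumed to vary like the other windows. No direction reversed among called results. With TMM factors 9 of 10 TSCs of members changed over time, and the highest hour moved to 8-9 h for *en*, 5-6 h for *hh*, 4-5 h for *ptc* and 3-4 h for *nkd*. The likeness of *gsb* and *gsb-n* was 0.620 without 4-5 h, 5-6 h and 7-8 h. Alternatives for the pathway list were not run. Depth limits values at 7-8 h and all values of *gsb-n*.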
